A study of Pagiophloeus tsushimanus with 15 samples.

Results

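Among 34486 assembled unigenes of the weevil Pagiophloeus tsushimanus, 4 that are described as cytochrome P450 family 6 proteins are followed here through every diet of a feeding experiment. They are one with the description probable P450 6a20 isoform X2 of the rice weevil Sitophilus oryzae (TRINITY_DN12993_c0_g1, called P450 6a20 from here on), probable cytochrome P450 6a14 of the same species (TRINITY_DN1085_c0_g1, P450 6a14), and a pair described as P450 6a2-like, one after Sitophilus oryzae (TRINITY_DN9219_c0_g1, DN9219) and one after the mountain pine beetle Dendroctonus ponderosae (TRINITY_DN32261_c0_g1, DN32261). They were chosen because their levels were higher on terpenoid diets than without terpenoids in these same libraries. Their differences from untreated larvae are therefore given as a description, with no test. Whether libraries of different diets overlap is likewise described for the 4 alone. It was not counted over all unigenes, so no separation of diets is read as particular to the 4. The descriptions name a similar protein of another species, not a measured function.

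RNA was sequenced from whole bodies of larvae in 15 libraries, 3 for each of 5 diets. One diet held no terpenoid (untreated), a pair held 10 or 30 mg/g of an additive that the labels call EO and do not spell out, and a further pair held 17 or 41 mg/g of D-camphor, a bicyclic monoterpenoid ketone of the camphor tree. No strain, age, sex or feeding time is given by the labels, and no allele or other treatment is named. The doses of the additives are not matched, and it is not stated whether libraries of one diet come from separate animals, pools or repeat preparations, so p-values measure only the spread between these libraries. Levels are in TPM, a unit of transcript abundance which corrects for transcript length and so allows levels of different unigenes to be compared. Because read depth is lost in this unit, counting precision is unknown. In whole-body RNA, more cells that express a gene and more RNA per cell cannot be told apart.

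Cytochromes P450 are haem enzymes that insert an oxygen atom into their substrate, with electrons passed to them by NADPH-cytochrome P450 reductase and, for some reactions, by cytochrome b5. Insects use members of family 6 to oxidise plant toxins and insecticides, mainly in gut, fat body and Malpighian tubules, and the genes of this family are often inducible by the compounds eaten. In Drosophila melanogaster, Cyp6a2 is known from insecticide-resistant strains and Cyp6a20 from work on male aggression.

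The label given to larval tissue was checked on marker lists, found by words in the descriptions. Of these, 22 muscle unigenes summed to between 9234 and 13915 TPM in a library, 40 gut unigenes to between 11767 and 19093 TPM, and 6 arylphorin unigenes, storage proteins of fat body, to between 1296 and 7212 TPM. The fat body list set first (hexamerin, apolipophorin, vitellogenin) matched only 6 vitellogenin unigenes. These were at 0 TPM apart from a sum of 13.1 TPM in EO 30 mg/g replicate 1, and the arylphorin list was added afterwards. Haemocyte markers (5) summed to 194 to 400 TPM and nervous system markers (3) to 7.32 to 12.2 TPM. Cuticle proteins (53) varied most, from 343 to 33411 TPM, and were highest in EO 10 mg/g replicate 1 (33411 TPM), EO 30 mg/g replicate 1 (17555 TPM) and replicate 2 of D-camphor at 41 mg/g (21692 TPM). These 3 libraries also had the highest scores on the first principal component. Comparisons between terpenoid diets in which a chosen unigene was called are given with and without them. The other comparisons of the chosen unigenes, and their shares, are given with them only. The part of tissue composition in the results was not tested.

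Without terpenoids, 1 of the 4 unigenes was well expressed and the others were below 2 TPM in every library. P450 6a14 stood at 24.56, 30.04 and 49.15 TPM in the 3 untreated libraries, a mean of 34.6 ± 12.9 TPM (SD, n = 3). It ranked 15 among the 70 unigenes described as cytochrome P450 and 1458 among all unigenes. P450 6a20 was listed at 0, 0 and 1.28 TPM, DN9219 at 1.36, 0.7 and 1.76 TPM, and DN32261 at 0.49, 0.53 and 1.16 TPM. These 3 ranked 49, 36 and 39 among the P450 unigenes, so that P450 6a14 made up 92.1% to 96.1% of the summed level of the 4 in untreated larvae. Untreated replicate 3 was the highest of its group for all 4 unigenes.

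P450 6a20 had the widest range of the 4. On EO at 10 mg/g it stood at 93.98, 77.01 and 342.88 TPM, and on EO at 30 mg/g at 737.11, 919.73 and 595.06 TPM. On D-camphor it stood at 50.96, 37 and 41.5 TPM at 17 mg/g, and at 45.38, 20.37 and 35.02 TPM at 41 mg/g. The camphor doses overlapped, every EO library lay above every D-camphor library, and the lowest terpenoid library was far above the highest untreated one. The log2 differences from untreated larvae were 6.70 and 9.13 on the lower and higher dose of EO, and 5.06 and 4.64 on those of D-camphor (SE 0.51 each). All log2 differences are of log2(TPM + 1), a scale that understates the change of low unigenes. The sizes for P450 6a20 depend on the pseudocount of 1 TPM, because 2 of the 3 untreated values are 0, and with a pseudocount of 0.1 TPM the value for EO at 10 mg/g was 9.14.

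DN9219 separated all 5 diets. It stood at 7.95, 11.01 and 5.58 TPM on D-camphor at 17 mg/g and at 23.77, 18.63 and 15.96 TPM on D-camphor at 41 mg/g. On EO at 10 mg/g the values were 55.72, 57.63 and 89.57 TPM, and on EO at 30 mg/g 681.28, 587.82 and 397.73 TPM. No diet overlapped with the next in the order untreated, D-camphor at 17, D-camphor at 41, EO at 10 and EO at 30 mg/g. Its log2 differences from untreated larvae were 2.0 and 3.18 on the lower and higher dose of D-camphor and 4.91 and 7.93 on those of EO (SE 0.29 each).

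DN32261, the other 6a2-like unigene, had overlapping levels at the doses of each additive. It stood at 41.25, 37.11 and 138.04 TPM on EO at 10 mg/g and at 131.21, 270.73 and 180.59 TPM on EO at 30 mg/g. On D-camphor the values were 28.54, 27.29 and 17.37 TPM at 17 mg/g, and 34.93, 12.58 and 6.3 TPM at 41 mg/g. At 41 mg/g of D-camphor the SD (15.05 TPM) was nearly as large as the mean (17.9 TPM, n = 3). Its log2 differences from untreated larvae were 5.16 and 6.78 on the lower and higher dose of EO, and 3.87 and 3.17 on those of D-camphor (SE 0.57 each).

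P450 6a14 had the highest level of the 4 on every diet and the smallest log2 differences from untreated larvae. Its values were 141.98, 166.37 and 370.73 TPM on EO at 10 mg/g and 860.63, 1162.99 and 790.05 TPM on EO at 30 mg/g. They were 77.02, 71.18 and 65.96 TPM on D-camphor at 17 mg/g, and 144.49, 89.14 and 96.18 TPM on D-camphor at 41 mg/g. The highest library on D-camphor at 41 mg/g lay above the lowest on EO at 10 mg/g, while all other neighbouring diets were separate. The log2 differences from untreated larvae were 2.60 and 4.76 on the lower and higher dose of EO, and 1.08 and 1.67 on those of D-camphor (SE 0.35 each).

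**Figure D1:**
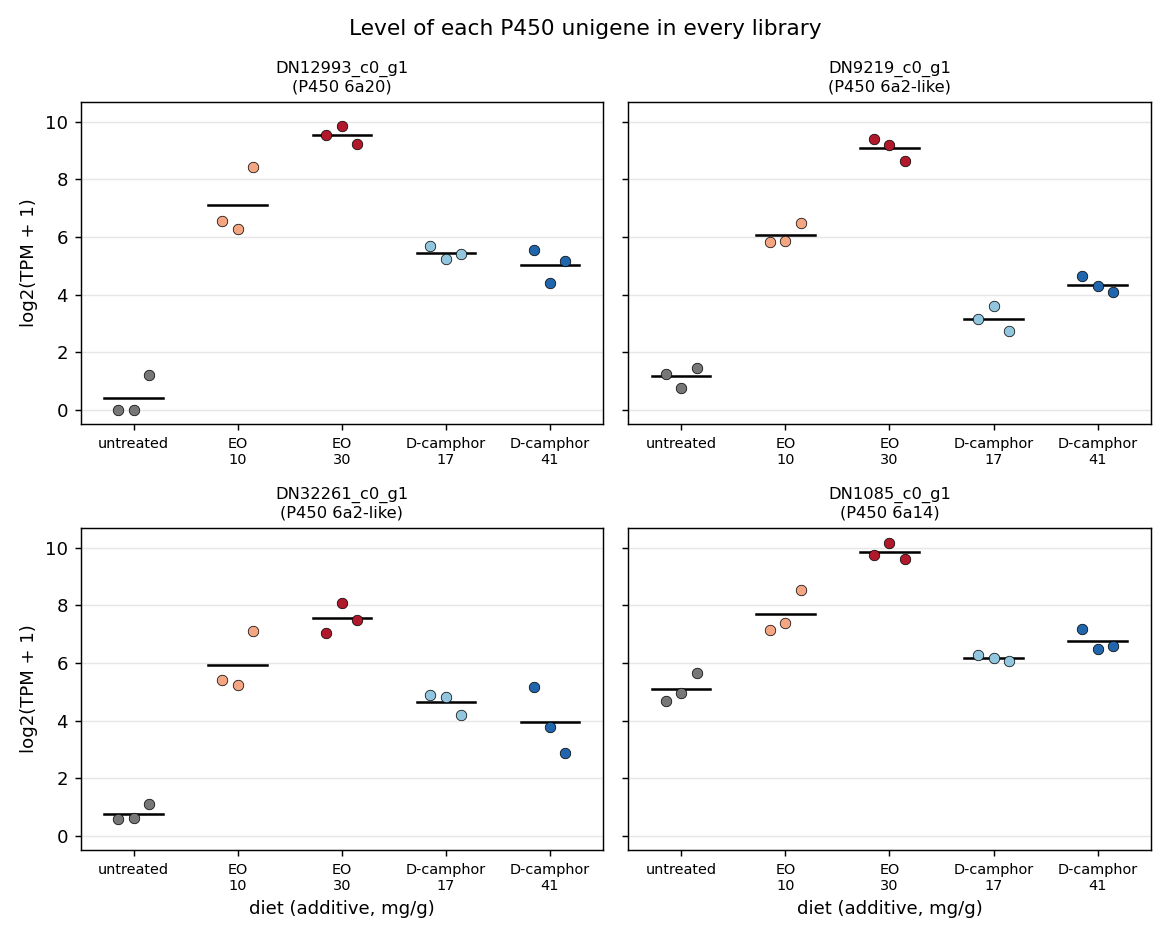
Level of each of the 4 unigenes as log2(TPM + 1) (y axis, log scale) by diet (x axis, additive in mg/g). Points are single libraries in replicate order and bars the mean of 3. All 4 unigenes are lowest in untreated larvae and highest on EO at 30 mg/g, and on D-camphor DN9219 and P450 6a14 have their higher mean at 41 mg/g while P450 6a20 and DN32261 have it at 17 mg/g.

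Calls over all unigenes are given for scale. They are from limma, which fits a linear model to each unigene and draws its variance towards that of unigenes of similar level. At an adjusted p under 0.05, in either direction, it called 0.0719% and 0.184% of the 12510 unigenes tested on EO at 10 and 30 mg/g against untreated larvae. On D-camphor at 17 and 41 mg/g it called 0.04% and 0.016%. All 4 chosen unigenes had a mean of at least 1 TPM over the 15 libraries, the level needed to enter the test, although P450 6a20 and DN32261 reached it through the terpenoid diets, since their untreated means were 0.427 and 0.727 TPM. The untreated mean of DN9219 was 1.27 TPM.

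Among unigenes described as P450, those just outside the choice had much smaller differences, which restates the choice. TRINITY_DN3315_c0_g2, described as CYP6BW2 of Dendroctonus ponderosae, had the largest log2 difference among the remaining P450 unigenes on EO at 30 mg/g, 1.35 (59.8 ± 6.46 TPM untreated and 153 ± 10.6 TPM on EO at 30 mg/g, SD, n = 3 each). TRINITY_DN20485_c0_g2, described as probable cytochrome P450 6a13, came next with 1.23 (31.1 ± 9.51 and 75.3 ± 26.3 TPM). The smallest value among the 4 chosen on that diet was 4.76, for P450 6a14.

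The comparisons between terpenoid diets take no mean from the untreated libraries, although these libraries enter the estimate of the spread. They still share the terpenoid libraries that took part in choosing the unigenes, so their p-values are not independent of that choice. On EO, a 3-fold higher dose went with a higher mean of all 4 unigenes. The mean TPM at 30 mg/g was 8.21 times that at 10 mg/g for DN9219, 4.38 times for P450 6a20, 4.14 times for P450 6a14 and 2.69 times for DN32261. DN9219 alone passed the test, with a log2 difference of 3.02 (95% interval 2.40 to 3.64, adjusted p = 0.00223 by limma, higher in 3 of 3 libraries than any library of the lower dose). It was the single unigene called among all tested in this comparison (0.00799%).

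For P450 6a20 the log2 difference between the EO doses was 2.44 (95% interval 1.33 to 3.54, adjusted p = 0.338 by limma), with all 3 libraries of the higher dose above those of the lower. P450 6a14 was likewise higher in 3 of 3 libraries, by 2.16 (1.41 to 2.91, adjusted p = 0.151). DN32261 differed by 1.62 (0.38 to 2.87, adjusted p = 0.952), and 2 of its 3 libraries lay above all those of the lower dose. These intervals lie above 0 before adjustment over all unigenes, and the differences did not pass after it. One library weighed on this comparison, because EO 10 mg/g replicate 3 was the highest of its group for each of the 4. Without it, 3 of the 4 passed, among 5 unigenes called in all. These 3 had log2 differences of 3.24 for DN9219 (adjusted p = 0.00385 by limma), 3.10 for P450 6a20 (0.0159) and 2.58 for P450 6a14 (0.00837). Leaving out the highest library of the lower dose must raise the difference, so the added passes of P450 6a20 and P450 6a14 are partly fixed in advance. Each of them passed in only 1 of the 15 fits that leave out 1 library. The call of DN9219 ended when the groups compared were fitted alone (adjusted p = 0.26) and without the 3 libraries high in cuticle protein (2.73, adjusted p = 0.362).

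On D-camphor, a 2.41-fold higher dose went with no call among the 4, nor among all unigenes (0%), while 1190 unigenes had an unadjusted p under 0.05 by limma. The 4 unigenes split into pairs by direction. DN9219 was 2.38 times as high at 41 as at 17 mg/g, in 3 of 3 libraries, with a log2 difference of 1.18 (95% interval 0.56 to 1.80, unadjusted p = 0.00135, adjusted p = 0.253). P450 6a14 was 1.54 times as high, also in 3 of 3 libraries (0.59, interval -0.17 to 1.34, adjusted p = 0.641). P450 6a20 and DN32261 had means at 41 mg/g that were 0.778 and 0.735 times those at 17 mg/g, with log2 differences of -0.41 (-1.52 to 0.69, adjusted p = 0.859) and -0.70 (-1.95 to 0.54, adjusted p = 0.749). For P450 6a14, P450 6a20 and DN32261 the intervals span 0, so a lower or a higher level at 41 mg/g both lie inside them.

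Whether the step between doses differed between the additives was tested directly. The EO step exceeded the D-camphor step by 2.85 log2 units for P450 6a20 (95% interval 1.28 to 4.41, adjusted p = 0.184 by limma), 2.32 for DN32261 (0.56 to 4.08, 0.304), 1.84 for DN9219 (0.96 to 2.72, 0.144) and 1.57 for P450 6a14 (0.51 to 2.64, 0.264). No unigene passed (0%), and 1448 had an unadjusted p under 0.05. The steps cover different dose ratios.

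Comparisons between the additives, at the higher and the lower doses, are tilted by the choice, since choosing unigenes by their rise on EO favours EO. All 4 unigenes were called higher on EO at 30 mg/g than on D-camphor at 41 mg/g, among 13 unigenes called in all (0.104%). The dose of EO was the lower of the pair. DN9219 differed by 4.75 log2 units (95% interval 4.13 to 5.37, adjusted p = 1.29e-05 by limma), P450 6a20 by 4.49 (3.38 to 5.60, 0.00308), DN32261 by 3.61 (2.37 to 4.86, 0.0416) and P450 6a14 by 3.09 (2.34 to 3.85, 0.00308). In each, the 3 libraries on EO lay above the 3 on D-camphor. The call of DN32261 was fragile, since it held in 2 of the 15 fits that each leave out 1 library (adjusted p up to 0.208). With a pseudocount of 0.1 TPM, P450 6a20 (adjusted p = 0.0946) and DN32261 (0.0618) were not called. Without the 3 libraries high in cuticle protein, DN9219 was the one of the 4 still called (4.56, adjusted p = 0.00531), among 3 unigenes in all. The log2 differences of the others were then 4.18 (P450 6a20), 3.78 (DN32261) and 3.01 (P450 6a14).

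At the lower doses, DN9219 was the one unigene called between 10 mg/g of EO and 17 mg/g of D-camphor (0.00799%), higher on EO by 2.91 log2 units (95% interval 2.29 to 3.53, adjusted p = 0.00331 by limma, 3 of 3 libraries). P450 6a20 was higher on EO by 1.64 (0.54 to 2.75, adjusted p = 0.35), P450 6a14 by 1.52 (0.77 to 2.27, 0.221) and DN32261 by 1.29 (0.04 to 2.53, 0.476), each with separate groups. How many of all unigenes have separate groups was not counted. The call of DN9219 ended when the groups compared were fitted alone (adjusted p = 0.221) and without the 3 libraries high in cuticle protein (3.03, adjusted p = 0.0809).

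**Figure D2:**
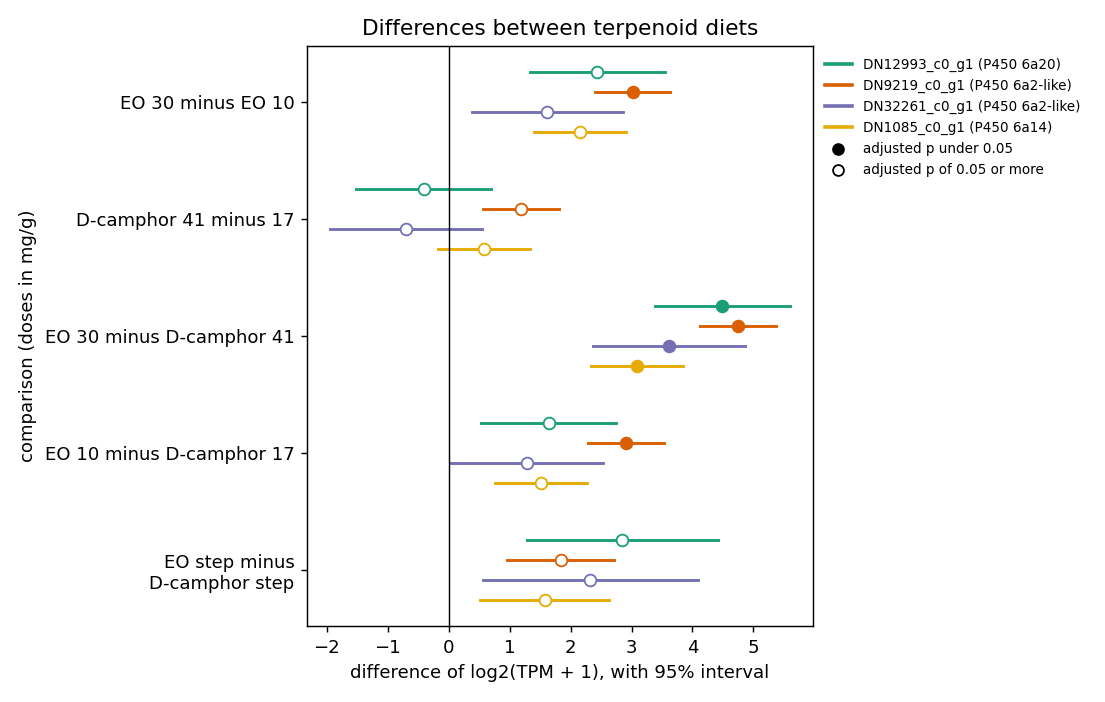
Difference of log2(TPM + 1) (x axis) with its 95% interval from limma, for each of the 4 unigenes (colours) in the 5 comparisons between terpenoid diets (y axis). Filled points have an adjusted p under 0.05. DN9219 is filled in 3 comparisons and all 4 unigenes are filled for EO at 30 mg/g against D-camphor at 41 mg/g, while the intervals for the D-camphor doses lie nearest 0.

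The 4 unigenes held a larger share of all P450 transcripts in each terpenoid library than in any untreated one, which follows from how they were chosen, and the size of that share differed between diets. In untreated larvae they held 0.461%, 0.544% and 1.24% of the summed TPM of the 70 P450 unigenes. On D-camphor they held 2.50%, 2.04% and 2.02% at 17 mg/g and 3.70%, 2.74% and 2.46% at 41 mg/g. The shares on EO were 7.83%, 5.98% and 12.6% at 10 mg/g and 28.2%, 31.2% and 24.5% at 30 mg/g. Each EO library lay above each D-camphor library. In TPM, the sum of the 4 was 37.0 ± 14.4 in untreated larvae and 2438 ± 490 on EO at 30 mg/g (SD, n = 3), where the highest library, replicate 2, reached 0.294% of all transcripts.

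Within the P450 unigenes, the ranks moved accordingly. On EO at 30 mg/g, P450 6a14 was the third most abundant, and P450 6a20, DN9219 and DN32261 ranked 5, 6 and 11 of 70. On D-camphor at 41 mg/g the ranks were 8 for P450 6a14, 17 for P450 6a20, 20 for DN9219 and 21 for DN32261. A pair of P450 unigenes outside the 4 had a higher mean than all of them on EO at 30 mg/g, TRINITY_DN29625_c0_g1, also described as P450 6a2-like, with 1773 ± 287 TPM, and TRINITY_DN20844_c0_g2, described as a cytochrome P450 of Dendroctonus armandi, with 1397 ± 112 TPM (SD, n = 3).

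**Figure D3:**
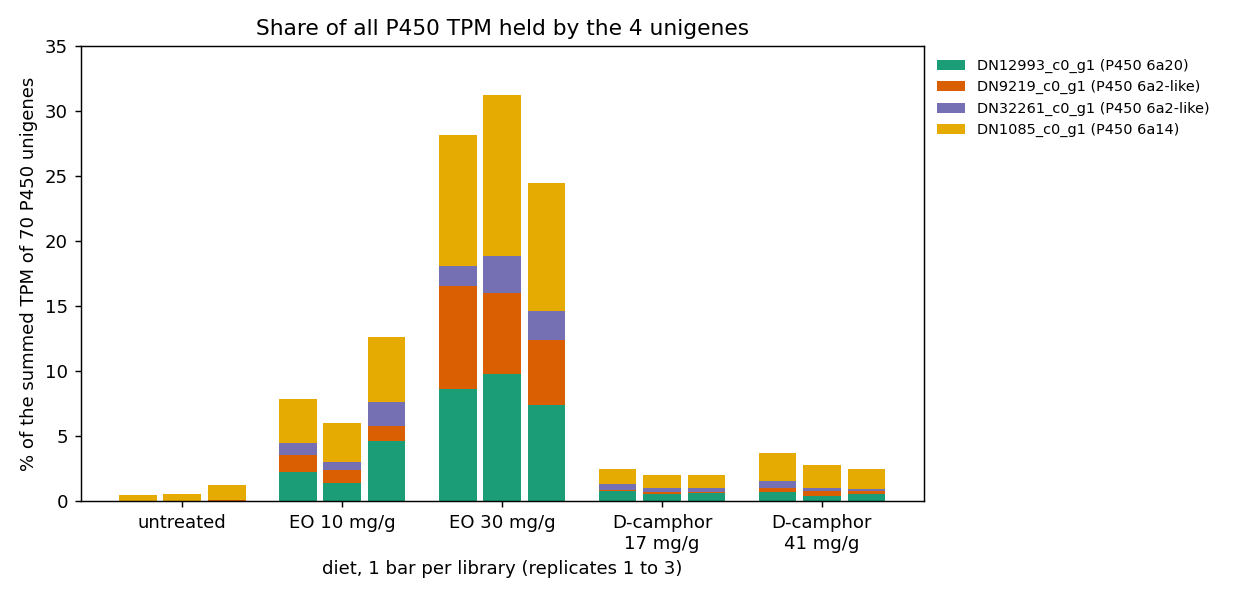
Share of the summed TPM of all 70 P450 unigenes held by the 4 unigenes (y axis, %), with 1 bar for each library and the unigenes stacked by colour. Bars reach 24.5% to 31.2% on EO at 30 mg/g and stay at or under 1.24% in untreated larvae.

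The make-up of the 4 also varied with diet. On EO at 30 mg/g, P450 6a14 held 35.7% to 40.2% of the sum and P450 6a20 held 30.3% to 31.3% of it. DN9219 held 28.3%, 19.99% and 20.3% there, against 4.83%, 7.52% and 4.28% on D-camphor at 17 mg/g. DN32261 showed the reverse order, with 5.44% to 9.20% on EO at 30 mg/g and 13.3% to 18.6% on D-camphor at 17 mg/g. The other doses of the additives overlapped, with DN9219 at 9.52% to 17.04% on EO at 10 mg/g and 9.56% to 13.2% on D-camphor at 41 mg/g, and DN32261 at 10.98% to 14.7% and 4.11% to 14.1%. On D-camphor at 41 mg/g P450 6a14 again held most, 58.1% to 63.3%. No test was made of these shares.

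The ratio of the 6a2-like unigenes also varied. DN9219 was 0.279 to 0.403 times DN32261 in the 3 libraries on D-camphor at 17 mg/g and 2.17 to 5.19 times DN32261 on EO at 30 mg/g. The ratio ran from 0.649 to 1.55 on EO at 10 mg/g and from 0.681 to 2.53 on D-camphor at 41 mg/g, which overlap, and in untreated larvae, where both are near 1 TPM, from 1.32 to 2.78.

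**Figure D4:**
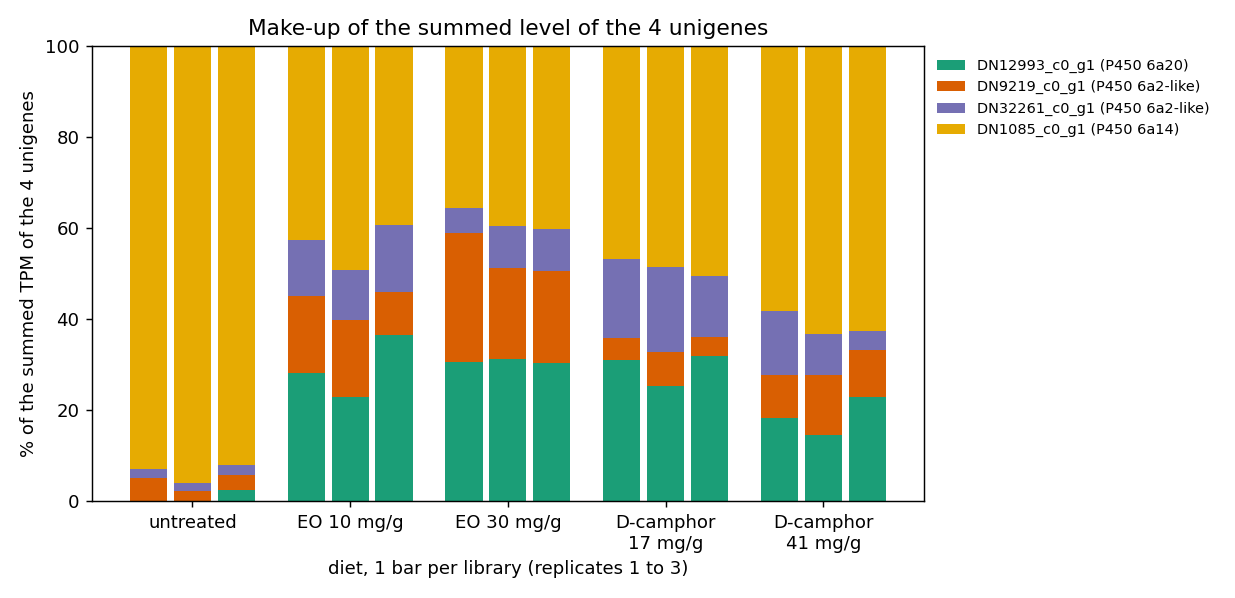
Make-up of the summed TPM of the 4 unigenes (y axis, %) in each library, stacked by unigene. P450 6a14 fills over 92% of each untreated bar, DN9219 is widest on EO at 30 mg/g, and DN32261 is on average widest on D-camphor at 17 mg/g.

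Over the 15 libraries, Pearson's r of log2(TPM + 1) between members was highest for DN9219 with P450 6a14 (0.981) and for P450 6a20 with DN32261 (0.979), and 0.916 to 0.936 for the other pairs. These are descriptions, because the points share diets and libraries and the unigenes were chosen for a common pattern. After subtraction of each diet's mean, which leaves the spread between replicates, the order changed. P450 6a20 and P450 6a14 then had the highest r, 0.93, DN32261 and P450 6a14 had 0.82, and the lowest was that of P450 6a20 with DN9219, 0.58. Replicate 3 of EO at 10 mg/g and replicate 1 of D-camphor at 41 mg/g were each the highest of their group for all 4 unigenes.

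Among the 5 unigenes most like each member by this r, 3 lay outside the 4, and all 3 are described only as unknown proteins of Dendroctonus ponderosae. TRINITY_DN1904_c0_g1 was nearest to P450 6a14 (r = 0.996), and its level was nearly the same, with the TPM of P450 6a14 at 0.771 to 1.16 times its own in the 15 libraries. Unigenes that share reads could give such a match, which was not tested, so the level of P450 6a14 is uncertain to that extent. TRINITY_DN986_c0_g1 had r = 0.968 with P450 6a20 and 0.966 with DN32261, and stood at 35.3 ± 11.03 TPM untreated, 1709 ± 164 TPM on EO at 30 mg/g and 208 ± 38.4 TPM on 17 mg/g of D-camphor. TRINITY_DN986_c0_g2 had r = 0.958 with P450 6a14 and 0.943 with DN9219, with a far higher untreated level of 657 ± 110 TPM and 3015 ± 416 TPM on EO at 30 mg/g (SD, n = 3 each).

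The remaining 66 P450 unigenes gave the setting of the 4. They are what is left after the 4 were taken out for their rise, so few calls among them partly restates the choice. Of these, 34 were tested, and limma called 0 of them on any diet against untreated larvae, with 3, 11, 3 and 5 at an unadjusted p under 0.05 on EO at 10 and 30 mg/g and on D-camphor at 17 and 41 mg/g, in that order. Over all unigenes tested, 6.31%, 8.80%, 6.24% and 6.24% were under it on these diets, and 0.0719%, 0.184%, 0.04% and 0.016% were called. The median log2 differences of the 34 were -0.05, 0.03, 0.13 and 0.02, beside -0.12, -0.06, 0.03 and -0.04 for all unigenes tested. By family, 14 of 18 family 6 unigenes were tested, 7 of 13 of family 4, which holds enzymes of fatty acid and cuticular hydrocarbon metabolism, 4 of 7 of family 9, another family known for detoxification, and 9 of 28 others. On EO at 30 mg/g, 6 of the 14 family 6 unigenes had an unadjusted p under 0.05, beside the 8.80% of all unigenes. These counts take either direction. On that diet the log2 difference was above 0 for 9 of the 14 and for 17 of the 34, beside 5068 of the 12510 unigenes tested. One gained a call in an alternative, TRINITY_DN3315_c0_g2 on EO at 30 mg/g without the 3 libraries high in cuticle protein (1.30, adjusted p = 0.0302).

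As a sum, the remaining P450 unigenes stood at 5222 ± 840.2 TPM in untreated larvae (SD, n = 3) and at 5982 ± 849.6 TPM over the terpenoid diets (n = 12). By diet, the means were 5254 ± 1301 TPM on EO at 10 mg/g and 6231 ± 228 TPM on EO at 30 mg/g. They were 6594 ± 391 TPM on D-camphor at 17 mg/g and 5847 ± 771 TPM at 41 mg/g (SD, n = 3 each). The test of this sum pooled the libraries of all terpenoid diets, so it describes none of these diets alone. The choice had taken rising unigenes out of the sum, so its p-value is shaped by that choice and decides nothing about P450 in general. The difference of 759.6 TPM had p = 0.167 in a two-sided exact permutation test, whose smallest possible p is 0.0022. With each library left out it ran from 275 to 1005 TPM, and it was 947 TPM without EO 10 mg/g replicate 1 (p = 0.0357 by the same exact test). As a sum of log2(TPM + 1) the difference turned to -0.67 (exact permutation p = 0.723). For comparison, the sum of the 4 unigenes was 2438 TPM on EO at 30 mg/g.

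P450 enzymes depend on redox partners and haem, and none of these passed the test on any diet. Over all unigenes 0.016% to 0.184% passed, depending on the diet, so 0 calls in a short list says little about that list. Of 11 unigenes for redox partners, 8 were tested, with 0 called by limma on each diet and 0, 3, 0 and 1 at an unadjusted p under 0.05 on EO at 10 and 30 mg/g and on D-camphor at 17 and 41 mg/g, in that order. In the same order, 6.31%, 8.80%, 6.24% and 6.24% of all unigenes were under this p. The 3 redox partners on EO at 30 mg/g were all described as cytochrome b5 isoform X1, the electron donor of some P450 reactions. TRINITY_DN22989_c0_g1 stood at 731 ± 156 TPM untreated and 1182 ± 131 TPM on EO at 30 mg/g (log2 difference 0.71, adjusted p = 0.515). TRINITY_DN7708_c0_g2 stood at 586 ± 180 and 1071 ± 26.7 TPM (0.91, adjusted p = 0.438), and TRINITY_DN37300_c0_g1 at 628 ± 118 and 1068 ± 58.1 TPM (0.78, adjusted p = 0.428). As they carry 1 description and similar levels, reads may be split between them. NADPH-cytochrome P450 reductase (TRINITY_DN4649_c0_g1), the main electron donor, stood at 252 ± 62.0 TPM untreated, 319 ± 32.6 TPM on EO at 30 mg/g (0.36, adjusted p = 0.59) and 335 ± 67.5 TPM on D-camphor at 41 mg/g (0.42, adjusted p = 0.797).

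In haem metabolism, 4 of 5 unigenes were tested and 0 were called by limma, with 0, 1, 2 and 0 at an unadjusted p under 0.05 on the 4 terpenoid diets in the same order. Over all unigenes, 6.31%, 8.80%, 6.24% and 6.24% were under this p and 0.016% to 0.184% were called. The haem unigene under this p on EO at 30 mg/g was 5-aminolevulinate synthase (TRINITY_DN5601_c0_g1), the first enzyme of haem synthesis, at 36.4 ± 3.04 TPM untreated and 62.7 ± 9.28 TPM on that diet (0.76, adjusted p = 0.316). It was also 1 of the 2 on D-camphor at 17 mg/g, at 52.5 ± 8.96 TPM (0.51, adjusted p = 0.723), and stood at 36.9 ± 8.09 TPM on D-camphor at 41 mg/g. The other on D-camphor at 17 mg/g was uroporphyrinogen decarboxylase (TRINITY_DN8959_c0_g1), a later enzyme of the pathway, at 32.5 ± 4.04 TPM untreated and 48.6 ± 3.13 TPM (0.57, adjusted p = 0.687). Of 8 unigenes found by the names of regulators of detoxification genes, 3 were tested. On each of the 4 terpenoid diets 0 of them were called and 0 had an unadjusted p under 0.05 by limma. MafK (TRINITY_DN33394_c0_g1), a partner of cap-n-collar factors, stood at 21.5 ± 2.29 TPM untreated and 23.0 ± 2.02 TPM on EO at 30 mg/g. The nuclear receptor HR96 (TRINITY_DN7146_c0_g1) stood at 5.74 ± 0.77 and 6.37 ± 0.936 TPM, and Keap1 (TRINITY_DN807_c6_g1), an inhibitor of cap-n-collar factors, near 1 TPM in both. HR96 was highest on D-camphor at 17 mg/g, at 7.28 ± 0.479 TPM (log2 difference 0.30, adjusted p = 0.797 by limma). Of the conjugating enzymes that act after P450 oxidation, 18 of 29 glutathione S-transferases and 15 of 21 UDP-glycosyltransferases were tested, with 0 called by limma on any diet. On EO at 30 mg/g, 7 and 3 of them had an unadjusted p under 0.05 in either direction, where 8.80% of all unigenes did. The log2 difference was above 0 for 11 of the 18 glutathione S-transferases (median 0.08) and 5 of the 15 UDP-glycosyltransferases (median -0.14). It was above 0 for 5068 of the 12510 unigenes tested (median -0.06).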

How the data were processed

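Samples were grouped by the treatment label, with replicate numbers from the titles, and columns were matched to titles, which share a letter and a number with them. In the deposited table the authors give TPM, scaled to an equal total in each library, with 2 decimals. The unigene names begin with TRINITY, as those made by the Trinity assembler do. The aligner and the counting method were not given in the sources used here. Extraction was with TRIzol and library preparation with an NEBNext Ultra kit, per the labels' protocols. TPM keeps no depth.

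TPM was transformed to log2(TPM + 1), and 12510 unigenes, those whose mean reached 1 TPM, were fitted in limma 3.58.1 (R 4.3.3) with 1 mean per diet over 15 libraries, a variance trend and 10 residual degrees of freedom. Tests were two-sided, with Benjamini-Hochberg adjustment over all tested unigenes in each of 9 comparisons and a threshold of 0.05. The remaining P450 sum was compared by an exact permutation test. Other settings tried were no filter, a pseudocount of 0.1, a minimum of 5 TPM, median-of-ratios scaling, a replicate block, the compared groups alone, array weights, each library left out, and 3 libraries left out together. The fit was tested on simulated data. Over 30 pairs of libraries with the same replicate number, correlations of deviations from the diet means ran from -0.34 to 0.56, with a median of 0.024. All 3 exceeded 0.1 between the EO doses (0.108 to 0.559). They also did between 10 mg/g of EO and 17 mg/g of D-camphor (0.106 to 0.416), and in no other pair of diets. The value of 0.559 is between the replicate 1 libraries of EO, both high in cuticle protein. Libraries with different numbers were not compared, so a pairing by number is not established, and the labels give none.

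The 4 unigenes, the lists (by words in the descriptions) and the left-out libraries were chosen with earlier results of these data known. Named beside the 4 are the 5 unigenes most correlated with each, the most abundant other P450 unigenes, those with the largest differences just outside the 4, and redox partners, haem enzymes and regulators. The arylphorin list was added after the table was seen. No sequence was used.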

Additional observations from a re-analysis of the deposited data

How the results depend on the processing

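In the comparisons between terpenoid diets, no log2 difference of the 4 unigenes changed sign in 460 alternative values, 24 lost a call and 2 gained one. Many of these values could not differ from the main one. Another filter, the compared groups alone, the replicate block, or leaving out a library outside the comparison keeps the same difference. The lack of a sign change is therefore partly fixed in advance. The number of the 4 called between the EO doses was 0 with the compared groups alone, 0 without the 3 libraries together, and 1 to 3 when each library was left out. Over all unigenes these fits called 0, 0 and 1 to 5. Between the higher doses of EO and D-camphor the number of the 4 called was 2 with a pseudocount of 0.1, 1 without the 3 libraries and 3 to 4 with each library left out. Over all unigenes these fits called 10, 3 and 9 to 21. Between the lower doses the number of the 4 called was 0 with the groups alone and 0 without the 3 libraries, as it was over all unigenes. Both settings leave fewer libraries in the fit.

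In the comparisons singled out above by their same-numbered correlations, the replicate block changed no call of the 4. DN9219 was still the 1 called between EO doses (adjusted p = 0.0196 by limma) and between the lower doses of the additives (0.0273). It was the only call over all unigenes in each. Between the higher doses the block called 3 of the 4 (DN32261 had adjusted p = 0.105 by limma), among 9 unigenes in all. Between the D-camphor doses it called 0.

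Without the most abundant other P450 unigene, the mean share of the 4 was 35.1% on EO at 30 mg/g, 3.15% on D-camphor at 17 mg/g and 4.42% on D-camphor at 41 mg/g, against 27.9%, 2.19% and 2.97%. The difference in the remaining P450 was -0.67 as a sum of log2(TPM + 1) (exact permutation p = 0.723), and 275 to 1005 TPM with each library left out (947 without EO 10 mg/g replicate 1). The cause was not tested. TPM holds no counts, so precision at levels near 1 TPM, as in untreated larvae, is unknown.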

Other observations

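EO 30 mg/g replicate 1 held 52 unigenes that were above 0 in that library alone, summing to 149 TPM, against 9 to 28 such unigenes in each of the other 14 libraries. Among unigenes described as vitellogenin, a yolk protein, 6 were found, all described after animals other than insects. They were at 0 in 14 libraries and summed to 13.1 TPM in EO 30 mg/g replicate 1. The levels of the 4 P450 unigenes in that library lay inside the range of its group for P450 6a20 (737.11 TPM) and P450 6a14 (860.63 TPM), at the top for DN9219 (681.28 TPM) and at the bottom for DN32261 (131.21 TPM).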
